A study of Mus musculus with 2 samples.

Results

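The cells described here are tumour-infiltrating CD8 T cells whose T cell receptor beta chain was read as the variable segment Trbv13-1. They were chosen by 5 conditions on their counts: 500 or more detected genes, a mitochondrial share of transcripts under 10%, a UMI of a Cd3 gene (Cd3d, Cd3e or Cd3g), a UMI of a Cd8 gene (Cd8a or Cd8b1), and Trbv13-1 as the Trbv gene with the most UMIs without a tie. A UMI is a molecular tag that marks 1 captured transcript. The rule found 607 cells among the 17977 barcodes of the series, 359 in the control library and 248 in the library depleted of natural killer (NK) cells. Because Trbv13-1 counts chose these cells, their Trbv13-1 level is given as a description only.

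The series asked how NK cells bear on CD8 T cells inside a tumour. Both libraries came from wild-type mice carrying MC38, a mouse colon carcinoma line, and tumours were taken on day 9. Digestion used collagenases I and IV, and viable CD8-positive cells were sorted before 5′ droplet sequencing on the 10x platform. The control group carries the treatment label PBS and a library name with the abbreviation Iso, and the other group received an antibody against NK1.1, a surface receptor of NK cells. All cells thus share the genotype, the tumour line, the day and the sort. The sources used here do not give how many mice entered a library. Each group is 1 library without replicates, so no test was run, and the library and the treatment cannot be told apart. The 95% intervals below cover counting error only.

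A CD8 T cell recognises a peptide on a class I molecule through a receptor built from 1 alpha and 1 beta chain. Each chain is assembled during thymic development from variable and joining segments (with a diversity segment in the beta chain), and the junction between them carries most of the diversity. Cells that share a V segment are therefore not a clone, since they differ at the junction and in the alpha chain. Within tumours, CD8 T cells range from naive-like cells that recirculate through lymph nodes, through dividing effector cells with granzymes and perforin, to exhausted cells with inhibitory receptors such as those encoded by Pdcd1, Lag3 and Havcr2.

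Trbv13-1 lies on mouse chromosome 6 (GRCm38, the mm10 build, chr6:41116007-41116468, plus strand) and has 2 exons in the GENCODE M21 annotation, chr6:41116007-41116078 and chr6:41116175-41116468. The second exon carries the variable domain. Trbv13-2 and Trbv13-3 carry the same group number and lie downstream, Trbv13-2 with its second exon at chr6:41121539-41121832 and Trbv13-3 at chr6:41130292-41130585. The 3 exons are each 294 bases long and are printed 5′ to 3′ on the coding strand, because a read that falls in a stretch they share cannot tell the 3 genes apart. Capitals in the lower sequences mark bases that differ from Trbv13-1.
Trbv13-1: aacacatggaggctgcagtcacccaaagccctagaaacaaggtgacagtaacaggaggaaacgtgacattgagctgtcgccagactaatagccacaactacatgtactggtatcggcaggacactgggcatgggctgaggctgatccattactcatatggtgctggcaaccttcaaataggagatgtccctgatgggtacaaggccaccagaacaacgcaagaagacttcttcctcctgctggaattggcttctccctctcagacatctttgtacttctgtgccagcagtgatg
Trbv13-2: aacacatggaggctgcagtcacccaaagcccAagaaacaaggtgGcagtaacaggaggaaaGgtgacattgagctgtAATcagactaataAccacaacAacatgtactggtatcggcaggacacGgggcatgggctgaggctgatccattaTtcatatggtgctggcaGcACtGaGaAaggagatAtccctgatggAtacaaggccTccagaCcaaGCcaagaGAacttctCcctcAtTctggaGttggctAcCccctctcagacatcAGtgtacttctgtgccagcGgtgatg
Trbv13-3: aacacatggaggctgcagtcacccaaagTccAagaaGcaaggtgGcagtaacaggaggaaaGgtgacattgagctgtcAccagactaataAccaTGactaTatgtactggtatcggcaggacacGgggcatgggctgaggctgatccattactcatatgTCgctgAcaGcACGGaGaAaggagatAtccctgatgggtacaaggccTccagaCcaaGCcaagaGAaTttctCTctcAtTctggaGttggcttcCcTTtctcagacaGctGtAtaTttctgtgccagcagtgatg

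Trbv13-2 was identical to Trbv13-1 at 88.8% of positions (33 differing bases) and Trbv13-3 at 86.1% (41 differing bases). The longest stretches without a difference were 31 and 34 bases. In the control library, 8 of the 359 Trbv13-1 cells (2.23%) also had a UMI of Trbv13-2 and 2 (0.557%) had one of Trbv13-3. Of the 248 NK-depleted cells, 0 had either. A cell called on 1 UMI of Trbv13-1 would be tied if it held a UMI of a relative, so these counts are kept low by the rule. Reads from shared stretches could also have been given to the wrong gene.

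Trbv13-1 led 13.6% (12.3 to 14.96%) of control cells with an untied leading Trbv gene, which made it the most frequent of 24 leading genes. Among NK-depleted cells it led 8.99% (7.94 to 10.1%) and ranked 3rd of 23. The difference of -4.61 percentage points was the most negative of any Trbv gene. Trbv29 followed with -2.95 points, Trbv12-1 with -2.59 and Trbv19 with -2.57, while Trbv2 stood 4.29 points higher, Trbv13-2 3.28 and Trbv1 2.45. How many clones stood behind these cells was not measured.

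**Figure D1:**
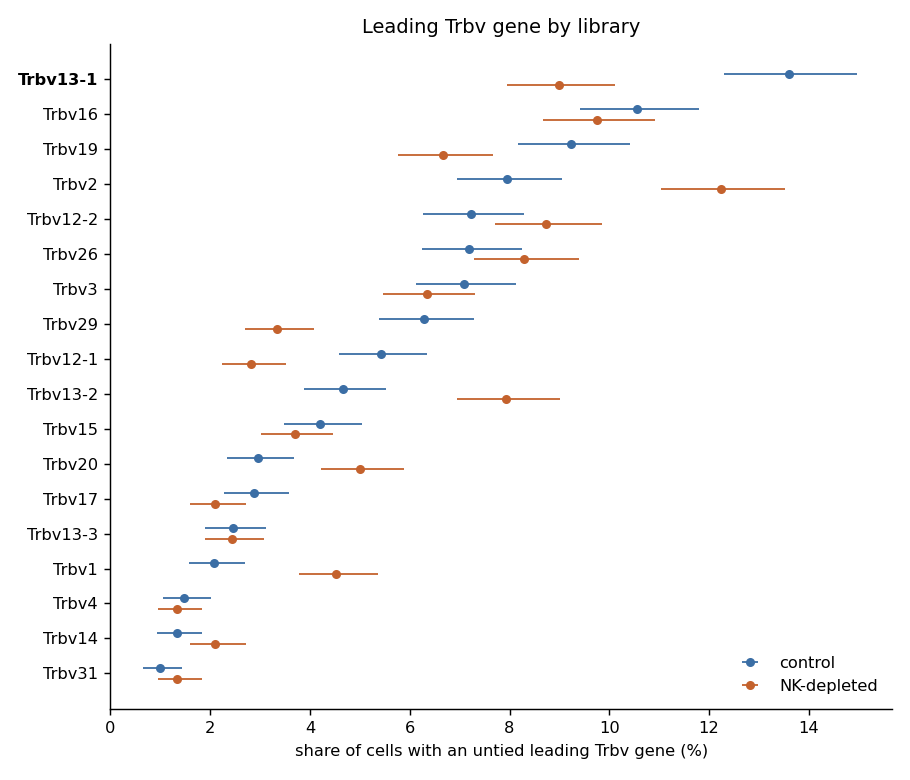
Share of cells with an untied leading Trbv gene that each Trbv gene led (percent, horizontal axis), with Clopper-Pearson 95% intervals, in the control and NK-depleted libraries. Trbv13-1 led 13.6% of control and 8.99% of NK-depleted cells, and the intervals do not overlap.

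Most cells could not be placed by their V segment. Of the cells that met the first 4 conditions (6901 control, 8164 NK-depleted), 57.2% and 62.8% had no Trbv UMI, 316 and 275 had a tie, and 2641 (38.3%) and 2760 (33.8%) had a single leading gene. The Trbv13-1 call rested on 1 UMI in 228 control and 175 NK-depleted cells, on 2 UMIs in 91 and 54, and on 3 or more in 40 and 19, with at most 7 and 6 in any cell. Just outside the rule lay 76 control and 37 NK-depleted cells in which Trbv13-1 tied with another segment. A second Trbv gene was seen in 22 control and 10 NK-depleted Trbv13-1 cells, with 2 or more UMIs in 2 cells and 1 cell. A Trbv13-1 UMI was also looked for in other cells. It was present in 1.01% (0.640 to 1.51%) of control cells led by another gene (median 13838.5 UMIs). Such NK-depleted cells had it in 0.398% (0.191 to 0.731%, median 14972 UMIs). A cell led by 1 UMI of another gene would be tied if it held a Trbv13-1 UMI. These shares are therefore kept low by the rule and leave out the tied cells. Clusters of other cell types had it in 5 of 369 control cells (1.36%, median 1212 UMIs) and 2 of 221 NK-depleted cells (0.905%, median 2027). They are no clean background, because some of their cells met the rule for Trbv13-1 cells. The conventional dendritic cell cluster (median 29406.5 UMIs) held 2 such control cells, and the plasmacytoid dendritic cell cluster held 1 in each library.

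The Trbv13-1 cells carried T cell transcripts throughout. The rule required a Cd3 and a Cd8 UMI, so these levels are in part set by the choice. Cd3e, a signalling chain of the receptor complex, stood at 640 CPM (counts of a gene scaled to the same total of all counts of the class) in control and 568 CPM in NK-depleted Trbv13-1 cells, and cells led by other segments had 647 and 556 CPM. Cd8a stood at 874 and 745 CPM in Trbv13-1 cells and Cd8b1 at 1094 and 932 CPM. None of the 7 T cell markers, the alpha and beta constant regions among them, was at 0. Cd4 had 2 UMIs in control and 1 UMI in NK-depleted Trbv13-1 cells. Their median depth was 16606 UMIs in the control and 16141 in the NK-depleted library, above the 13838.5 and 14972 of the 2282 and 2512 cells led by other segments. Shares of cells are therefore also given below at equal depth. The libraries shared 391 barcodes. No barcode was a Trbv13-1 cell in both.

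Markers of other cell types were low in Trbv13-1 cells, with exceptions that CD8 T cells are known to express. The 8 NK cell markers summed to 54.8 CPM in control and 82.1 CPM in NK-depleted Trbv13-1 cells, against 77.1 and 111 CPM in other cells, and Ncr1, which defines NK cells, had 0 and 1 UMIs. The 8 gamma delta T cell markers summed to 23.5 and 49.1 CPM (26.5 and 53.2 CPM in other cells). The 9 conventional dendritic cell markers summed to 114 and 47.6 CPM against 193 and 163 CPM, and 3 control and 1 NK-depleted Trbv13-1 cells fell in clusters of other cell types. Macrophage markers summed to 1972 and 2545 CPM, nearly all from Ly6c2, which activated CD8 T cells carry, while Lyz2, a macrophage lysozyme, had 6 and 3 UMIs. The B cell gene Cd79a was at 0 in Trbv13-1 cells of both libraries. The part of these other transcripts in the differences below was not tested, except where the values without those clusters are given.

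The alpha chain of the Trbv13-1 cells was diverse. An untied leading Trav segment was found in 119 of 359 control cells (33.1%) and 87 of 248 NK-depleted cells (35.1%), close to the 35.9% and 37.4% of cells led by other beta segments. These cells used 38 different Trav segments in the control and 32 in the NK-depleted library. The most frequent in the control library was Trav3-3 with 10 of 119 cells (8.40%, 4.10 to 14.9%). Among NK-depleted cells it was Trav16n with 11 of 87 (12.6%, 6.48 to 21.5%). Neither stood clear of the remaining cells, in which Trav3-3 led 7.20% (control) and Trav16n 13.3% (NK-depleted). The joining segments, which would bring the chains nearer to clones, were almost uncounted, with 2 UMIs over all Trbj and 3 over all Traj genes in the 17977 barcodes.

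Some Trav segments were more frequent beside Trbv13-1 than beside other beta segments, each in 1 library only. Trav7-5 led 8 of 119 control Trbv13-1 cells (6.72%) against 4 of 819 others (0.488%). Among NK-depleted cells Trav7d-4 led 8 of 87 (9.20%) against 0.745% of others, and Trav5-1 led 8 of 87 (9.20%) against 1.06%. The other library did not repeat these differences. Trav7-5 led 1.15% of NK-depleted Trbv13-1 cells against 2.45% of others. In the control library Trav5-1 led 1.68% against 1.47%, and Trav7d-4 led none of the Trbv13-1 cells. These 3 segments were singled out after their values were seen. Trav7-5 and Trav7d-4 are different segments of 1 family of related sequences, so counts within it are uncertain. The family as a whole gave 14.3% of control and 16.1% of NK-depleted Trbv13-1 cells against 8.06% and 7.98% of others. For scale, the beta segment Trbv16 was joined by Trav16n in 41.7% of its control and 36.5% of its NK-depleted cells with an alpha call. No combination held as large a part of the Trbv13-1 cells.

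The beta chain has 2 constant regions, Trbc1 and Trbc2, of nearly identical sequence, so their counts are uncertain. This comparison was chosen after the values were seen. Trbc1 outnumbered Trbc2 in 39.3% of control Trbv13-1 cells without a tie (34.2 to 44.6%) and in 22.4% of the NK-depleted ones (17.3 to 28.1%). The shares in cells led by other segments were 30.4% (28.6 to 32.4%) and 26.7% (24.98 to 28.5%). The Trbv13-1 cells of the control library thus lay above the other cells in Trbc1 use, and those of the NK-depleted library had an interval overlapping that of the other cells. The difference between these contrasts was not tested.

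The cells were next placed among clusters of both libraries, made without receptor segments. Clusters are called naive-like or exhausted-like from marker lists, with thresholds set after the data were seen. In the control library, 3.34% (1.74 to 5.77%) of Trbv13-1 cells fell in the 2 naive-like clusters against 8.55% (7.43 to 9.77%) of cells led by other segments. The NK-depleted library gave 5.24% (2.82 to 8.80%) against 9.43% (8.32 to 10.6%), with intervals that overlapped. Trbv13-1 was thus used less among naive-like cells in the control library, where it led 5.80% (3.03 to 9.91%) of them and 14.3% (12.9 to 15.7%) of the cells in all other clusters. Among NK-depleted cells the same shares were 5.20% (2.80 to 8.73%) and 9.36% (8.25 to 10.6%). The naive-like shares rested on 12 control and 13 NK-depleted Trbv13-1 cells. Their intervals are too wide to tell whether Trbv13-1 use differed between the libraries among naive-like cells. The 2 naive-like clusters went opposite ways. Trbv13-1 led 7.48% of control and 3.42% of NK-depleted cells in cluster 6, and 4% and 7.69% in cluster 12.

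The terminally exhausted-like cluster, named from 6 of 12 markers and led by Ccl3, held 29.0% (24.3 to 34.0%) of control Trbv13-1 cells against 20.3% (18.7 to 22.0%) of control cells led by other segments. With NK cells depleted it held 10.1% of Trbv13-1 and 10.4% of other cells. The cycling clusters held 19.5% (15.5 to 24.0%) and 15.6% (14.1 to 17.1%) in the control library, and 27.4% (22.0 to 33.4%) and 22.4% (20.8 to 24.1%) in the NK-depleted library. Control Trbv13-1 cells were therefore over-represented in the exhausted-like cluster relative to other cells of the same library, while the cycling intervals of Trbv13-1 and other cells overlapped in both libraries.

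Trbv13-1 use was lower in the NK-depleted library in 10 of the 14 T cell clusters that had at least 20 cells with a leading Trbv in each library, and higher in 4. In the exhausted-like cluster 0, Trbv13-1 led 104 of 568 control cells (18.3%, 15.2 to 21.7%) and 25 of 285 NK-depleted cells (8.77%, 5.76 to 12.7%). Cluster 2, which was led by Styk1, Ifitm1 and Gzmf and stayed unnamed, had 23.1% (17.1 to 30.1%) and 10.4% (7.55 to 13.9%). These were the 2 clusters whose intervals lay apart. Among the 14, the highest shares in both libraries were in cluster 7, led by the replication genes Ung, Cdc6 and Hells, with 25% (17.5 to 33.7%) and 14.2% (10.1 to 19.2%). If the NK-depleted cells had been spread over the 14 clusters as the control cells were, their Trbv13-1 share would have been 8.74%, beside 9.04% as observed there and 13.7% in the control library.

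**Figure D2:**
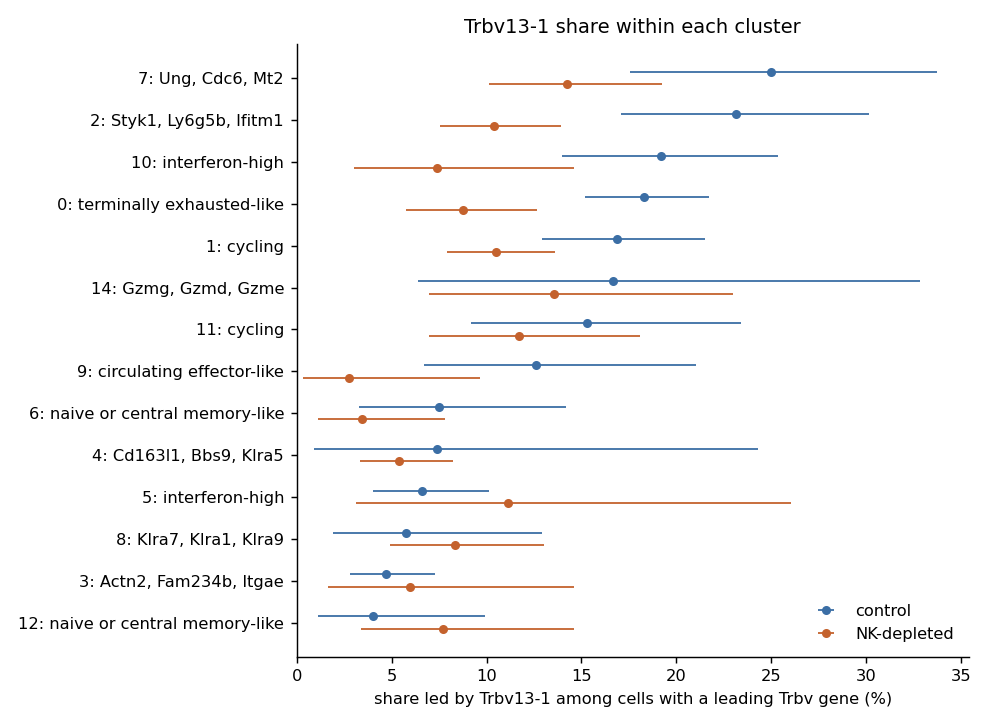
Share of cells with a leading Trbv that Trbv13-1 led in each cluster (percent), with Clopper-Pearson 95% intervals, in the control and NK-depleted libraries. The share was lower in the NK-depleted library in 10 of 14 T cell clusters, and the intervals of clusters 0 and 2 lie apart.

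State genes of Trbv13-1 cells were compared with those of all cells led by another segment in the same library. The differences were small. Of 2782 genes with at least 50 CPM in 1 class of each library, 0 (0%) were at least 1.5-fold higher in Trbv13-1 cells in both libraries and 2 (0.0719%) were at least 1.5-fold lower, Klf2 and Cd74. In the control library alone, 16 genes (0.575%) were lower and 0 higher, and in the NK-depleted library alone 5 genes (0.18%) were lower and 0 higher. The genes of naive and lymph node homing cells made up the most uniform group on the low side.

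Klf2 encodes a transcription factor that keeps lymphocytes in circulation. Its level was 45.9 CPM (41.2 to 51.1) in control Trbv13-1 cells and 83.3 CPM (80.6 to 86.2) in other control cells, 1.81-fold lower (1.62 to 2.03). The NK-depleted library gave 44.1 CPM (38.4 to 50.4) and 70.9 CPM (68.4 to 73.3), 1.61-fold lower (1.40 to 1.86). The 2 Trbv13-1 values lay close together and both below the 2 values of other cells. S1pr1, the receptor for exit from tissue that Klf2 controls, stood at 14.9 and 31.7 CPM in control cells (2.13-fold lower, 1.76 to 2.61) and at 15.2 and 24.4 CPM in NK-depleted cells (1.61-fold lower, 1.27 to 2.07). Ccr7, the lymph node chemokine receptor, was 1.42-fold lower (1.27 to 1.60) in control and 1.75-fold lower (1.48 to 2.09) in NK-depleted Trbv13-1 cells.

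Members of a gene list were counted as lower or higher past a smaller fold, a log2 ratio of 0.32 in either direction. Of 9 naive and homing genes, 7 were lower in control Trbv13-1 cells and 0 higher, at a median log2 ratio of -0.77. Over all 7787 genes of at least 10 CPM, 5.28% were lower and 2.89% higher and the median was -0.01. For NK-depleted cells 5 of the 9 were lower and 0 higher, with a median of -0.55, beside 3.58% lower, 3.33% higher and a median of 0.02 over all genes. The stem and memory genes showed the same direction with smaller values. Tcf7, a transcription factor of naive and stem-like T cells, stood at 36.0 against 59.9 CPM in control cells (1.66-fold lower, 1.47 to 1.89) and at 31.4 against 48.1 CPM in NK-depleted cells (1.53-fold lower, 1.30 to 1.82). Of 13 such genes, 6 were lower and 0 higher in control, and 4 lower and 0 higher in NK-depleted Trbv13-1 cells.

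These values moved with the smaller share of naive-like cells among the Trbv13-1 cells. Without the naive-like clusters, Klf2 was 1.33-fold lower in Trbv13-1 cells in each library, and Tcf7 1.35-fold lower in the control and 1.30-fold lower in the NK-depleted library. This alternative was chosen after seeing the data. The differences kept their direction and shrank. At equal depth per cell the log2 ratio of Klf2 was -0.81 in both libraries, beside -0.86 in the control and -0.68 in the NK-depleted library with all counts.

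Transcripts of memory-like and inflammatory effector cells were also lower in Trbv13-1 cells. Gzmk, a granzyme of early effector and memory cells, stood at 55.0 against 85.6 CPM in the control library (1.56-fold lower, 1.41 to 1.73) and at 23.3 against 36.6 CPM with NK cells depleted (1.57-fold lower, 1.30 to 1.92). Ccl5, a chemokine stored by effector and memory cells, stood at 1954 against 2751 CPM (1.41-fold lower, 1.38 to 1.43) and at 788 against 1129 CPM (1.43-fold lower, 1.39 to 1.48). Both genes thus had nearly the same ratio in each library. Gzma, a granzyme of circulating effectors, was 1.68-fold (1.58 to 1.79) and 1.44-fold (1.35 to 1.53) lower, and Ccr2, a receptor for inflammatory chemokines, 1.78-fold (1.58 to 2.004) and 1.42-fold (1.26 to 1.60) lower. The direction of Gzma depended on how Trbv13-1 cells were called. With a lead of at least 2 UMIs and 2 times the next segment its ratio was 0.700 in the control and 1.41 in the NK-depleted library, and with a lead of 3 UMIs and 3 times (38 and 18 cells) it was 1.21 and 2.82. Ccr2 turned to 1.18 in the NK-depleted library with the lead of 3. Of 10 circulating effector genes, 5 were lower past the list fold and 1 higher in control Trbv13-1 cells, and 4 were lower and 0 higher in the NK-depleted library.

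Cd74, the invariant chain of class II antigen presentation, passed the fold in both libraries but rested on few cells. It stood at 36.8 against 75.4 CPM in the control and at 6.24 CPM (30 UMIs) against 63.3 CPM in the NK-depleted library. In the control library, 18 of the Trbv13-1 cells held 98.2% of its UMIs. Without the clusters of other cell types the log2 ratio in the NK-depleted library was 0.09, so its direction was not kept.

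Interferon-response genes, which T cells switch on when they sense type I or type II interferon, were lower in Trbv13-1 cells of the control library. There, 16 of 23 type I response genes were lower past the list fold and 0 higher, at a median log2 ratio of -0.43. Ifit3 stood at 339 against 463 CPM (1.37-fold lower, 1.31 to 1.43), Isg15 at 533 against 726 CPM (1.36-fold lower, 1.32 to 1.41) and Slfn5, an interferon-induced gene of the Schlafen family, at 124 against 203 CPM (1.64-fold lower, 1.53 to 1.76). Among NK-depleted cells 0 of the 23 passed the fold and the median was -0.13. Ifit3 stood there at 197 against 238 CPM (1.20-fold lower, 1.13 to 1.29) and Slfn5 at 100 against 94.6 CPM. At equal depth, a UMI of Ifit3 was found in 58.6% (53.2 to 63.8%) of control Trbv13-1 cells, 68.4% (66.4 to 70.4%) of other cells and 61.6% of naive-like cells. The 23 genes of the interferon gamma list gave 11 lower and 0 higher in the control, and 2 lower and 0 higher in the NK-depleted library.

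Of the inhibitory receptor genes, Lag3 and Pdcd1 had ratios above 1 in both libraries, below 1.5-fold. Lag3, an inhibitory receptor that binds class II and other ligands, stood at 546 against 455 CPM in control cells (1.20-fold higher, 1.16 to 1.24) and at 373 against 302 CPM in NK-depleted cells (1.24-fold higher, 1.18 to 1.30). Pdcd1, which encodes PD-1, was 1.15-fold (1.09 to 1.20) and 1.21-fold (1.14 to 1.29) higher. In the cells with the surest calls, a lead of at least 3 UMIs and 3 times the next segment (38 control and 18 NK-depleted cells), the control ratios were 1.08 for Lag3 and 1.21 for Pdcd1, and the NK-depleted ratios turned to 0.872 and 0.962. Havcr2, which encodes TIM-3, was 1.24-fold higher (1.17 to 1.32) in the control library and stood at 153 against 151 CPM in NK-depleted cells. Over the 14 genes of the list the medians were near those of all genes, at 0.08 in the control and 0.02 in the NK-depleted library, with 2 higher and 1 lower, and 0 higher and 1 lower.

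The shares of cells with Havcr2, Lag3 and Pdcd1 were also higher at equal depth, though the Pdcd1 intervals overlapped in the NK-depleted library. After thinning to 5500 UMIs, a UMI of Havcr2 was found in 47.7% (42.4 to 53.1%) of 350 control Trbv13-1 cells, 31.6% (29.7 to 33.6%) of 2178 other cells and 1.47% of 614 naive-like cells. The NK-depleted values were 47.9% (41.5 to 54.4%) of 242 Trbv13-1 cells, 38.0% (36.0 to 39.9%) of 2410 other cells and 5.31% of 867 naive-like cells. Thinning left out 9 and 6 Trbv13-1 cells and 104 and 102 other cells that were shallower. Unthinned, the Trbv13-1 shares were 65.2% and 64.9%. Pdcd1 at equal depth was found in 64.9% (59.6 to 69.9%) of control Trbv13-1 cells against 57.1% (55.0 to 59.2%) of other cells. The NK-depleted Pdcd1 shares were 54.1% (47.6 to 60.5%) and 47.9% (45.9 to 49.9%). Lag3 was found in 81.7% (77.3 to 85.6%) against 70.4% (68.4 to 72.3%) of control cells and in 64.5% (58.1 to 70.5%) against 56.6% (54.6 to 58.6%) of NK-depleted cells at equal depth, and unthinned in 90.5% and 81.5% of Trbv13-1 cells. The naive-like cells, with 13.4% and 12.7%, give the background that free RNA could leave, at median depths of 11068 and 9254 UMIs.

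Within the exhausted-like cluster itself the inhibitory receptor values were level in the control library. Lag3 stood at 816 CPM in its 104 Trbv13-1 cells and 819 CPM in its other cells, and Klf2 at 53.2 and 50.7 CPM. With NK cells depleted, its 25 Trbv13-1 cells had 900 CPM of Lag3 against 711 CPM, and 47.1 CPM of Klf2 against 72.8 CPM. In clusters 1, 2 and 7 the control Lag3 ratio of Trbv13-1 to other cells was 1.02, 1.07 and 0.990, and in cluster 11, with 17 Trbv13-1 cells, it was 1.47 (1.28 to 1.68). The NK-depleted Lag3 ratio in these 4 clusters was 1.19, 1.16, 1.12 and 1.42.

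The genes with the highest ratios in both libraries were modest and of mixed function. Nrgn, which encodes the calmodulin-binding protein neurogranin, stood at 186 against 143 CPM in control cells (1.30-fold higher, 1.23 to 1.38) and 89.6 against 67.0 CPM in NK-depleted cells (1.34-fold higher, 1.21 to 1.48). Dusp4, a phosphatase of MAP kinases, was 1.22-fold (1.11 to 1.33) and 1.37-fold (1.20 to 1.56) higher. Ubash3b, a phosphatase that damps receptor signalling, was 1.28-fold and 1.18-fold higher, and Ikzf2, the transcription factor Helios, 1.23-fold and 1.19-fold. Ciapin1, needed for cytosolic iron-sulphur proteins, was 1.27-fold and 1.20-fold higher, Dut, which removes dUTP during replication, 1.20-fold and 1.18-fold, and the zinc transporter gene Tmem163 1.19-fold and 1.21-fold. Prf1, the pore former of cytotoxic granules, stood at 477 against 374 CPM (1.28-fold higher, 1.23 to 1.32) and 509 against 432 CPM (1.18-fold higher, 1.13 to 1.23). With the lead of at least 3 UMIs and 3 times the next segment, the NK-depleted ratio turned below 1 for Prf1 (0.907), Ubash3b (0.858) and Ikzf2 (0.840), and with the lead of 2 the control ratio of Dusp4 turned to 0.927. Over the 16 cytotoxic granule genes as a whole, 3 were higher and 3 lower in the control and 3 higher and 2 lower in the NK-depleted library.

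Genes of the G2 and M phases stood higher in Trbv13-1 cells of the control library. Of 26 genes of the G2 and M phases, 11 were higher past the list fold and 0 lower in control Trbv13-1 cells, at a median log2 ratio of 0.27. Among NK-depleted cells 0 passed in either direction and the median was 0.05. Mki67, a marker of dividing cells, stood at 365 against 303 CPM (1.20-fold higher, 1.16 to 1.26) and at 432 against 397 CPM (1.09-fold higher, 1.04 to 1.14), the latter ratio being 0.891 with the lead of 3 UMIs. Of 24 S phase genes, 2 were higher and 0 lower in the control, and 1 higher and 0 lower in the NK-depleted library. At equal depth, a UMI of Mki67 or Top2a was found in 47.7% (42.4 to 53.1%) of control Trbv13-1 cells against 40.1% (38.0 to 42.2%) of other and 11.4% of naive-like cells, and in 60.7% (54.3 to 66.9%) against 55.6% (53.6 to 57.6%) and 22.3% in the NK-depleted library. Of 18 glycolysis genes, 2 were higher and 0 lower in the control, where the median was 0.18, and the NK-depleted median was 0.05.

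**Figure D3:**
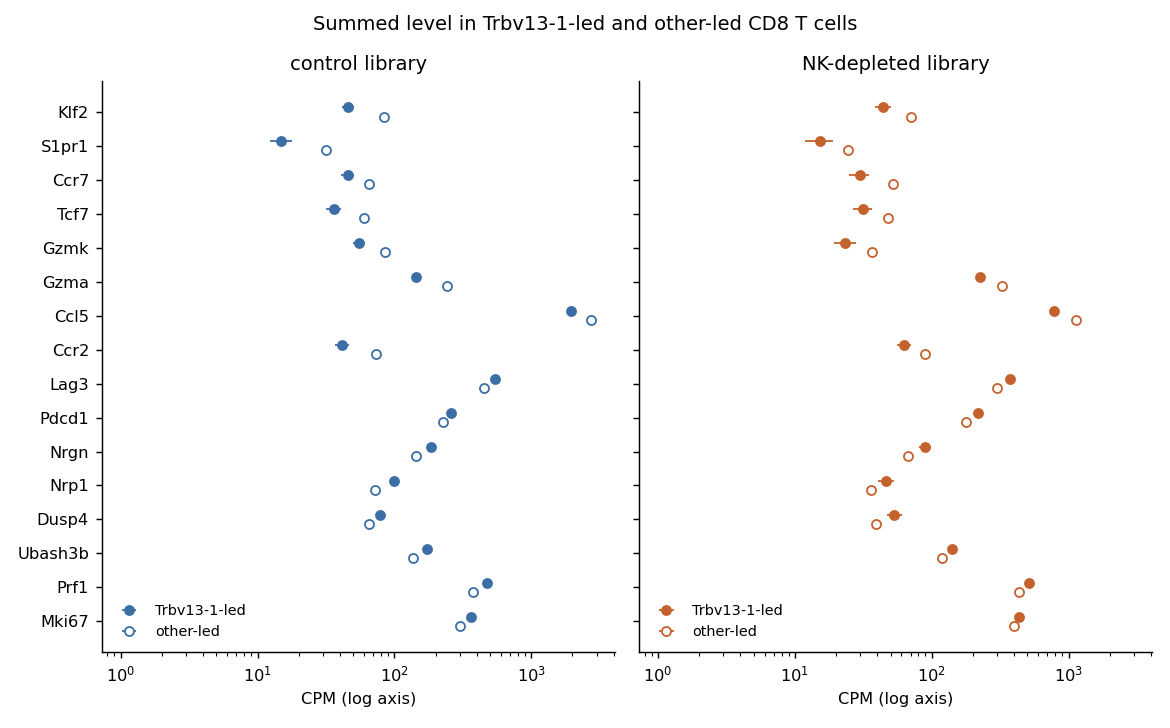
Level of state genes in Trbv13-1 cells and in cells led by another Trbv gene (CPM, log axis), for the control and NK-depleted libraries, with exact Poisson 95% intervals. The genes Klf2, S1pr1 and Tcf7 lie lower in Trbv13-1 cells of both libraries, and Lag3, Nrgn and Prf1 slightly higher.

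A single class of other cells hides how much V segments differ from each other, so the segments with at least 100 cells, 11 in each library, were set side by side. Trbv13-1 had the lowest summed level of naive and homing genes of the 11 in both. In the control library it stood at 264 CPM, with the remaining 10 between 309 and 526 CPM (median 409 CPM), and in the NK-depleted library at 270 CPM, with the others between 289 and 439 CPM (median 367 CPM). Klf2 alone was also lowest in both, at 45.9 CPM with the others from 48.3 to 107 CPM, and at 44.1 CPM with the others from 51.6 to 93.1 CPM. The nearest neighbours in that order, Trbv15 in the control and Trbv26 in the NK-depleted library, were close, and the Klf2 interval of control Trbv13-1 cells given above includes the Trbv15 value.

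The single genes Ccr7 (29.7 CPM, others from 33.4 CPM), Gzmk (23.3 CPM, others from 28.7 CPM) and Itga4 (36.0 CPM, others from 36.2 CPM) were also lowest of the 11 among NK-depleted cells, and ranked 9th, 10th and 9th in the control. The summed exhaustion genes stood at 2233 CPM in the control, the 2nd highest (others 1482 to 2463 CPM), and at 1589 CPM in the NK-depleted library, the 4th (others 1078 to 1986 CPM). The interferon sum was 9th of 11 in the control (4335 CPM, others 4210 to 8906 CPM) and 10th in the NK-depleted library (3649 CPM, others 3413 to 4512 CPM). The share in cycling clusters was 3rd in both. The share in naive-like clusters was 10th in both, with only Trbv26 lower (3.16% and 3.93%). Trbv26 also gave the highest Lag3 in both libraries (626 and 469 CPM), so the high-Lag3 pattern was not particular to Trbv13-1.

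**Figure D4:**
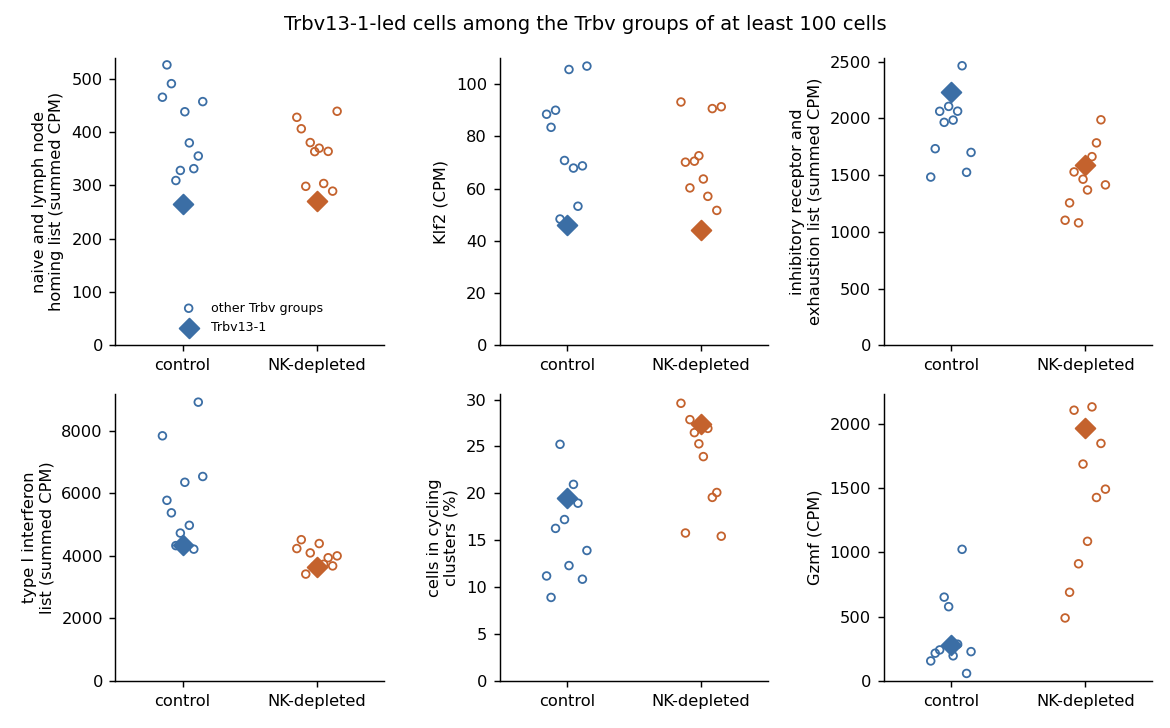
Values of V segment groups of at least 100 cells in each library, as CPM for summed gene lists and single genes and as percent for the share in cycling clusters, with Trbv13-1 as the filled diamond and the other 10 groups as open circles. Trbv13-1 was lowest of 11 in both libraries for the naive and homing sum and for Klf2, and inside the range of the other groups for the exhaustion sum.

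The second comparison set NK-depleted against control Trbv13-1 cells. With 1 library on each side it describes these libraries and is bound to everything that differed between them. Of 3020 genes with at least 50 CPM on 1 side, 29 (0.96%) were at least 1.5-fold higher and 60 (1.99%) at least 1.5-fold lower in the NK-depleted library. In cells led by other segments 23 of 3030 (0.759%) were higher and 71 (2.34%) lower. Of the 29 higher genes, 16 also passed the fold in other cells and all 29 had the same direction there. Of the 60 lower genes, 34 passed and 59 had the same direction. Trbv13-1 cells therefore followed the direction of the library as a whole.

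Granzyme genes led the higher side. Gzmf, 1 of a cluster of granzymes that are expressed in strongly activated mouse T cells, stood at 277 CPM in control and 1970 CPM in NK-depleted Trbv13-1 cells, 7.12-fold higher (6.79 to 7.47), against 3.63-fold in other cells. Gzmc went from 106 to 592 CPM, 5.59-fold higher (5.16 to 6.05) against 3.62-fold. Gzmd was 3.27-fold higher (2.85 to 3.76) against 2.73-fold and Gzme 2.66-fold (2.34 to 3.03) against 2.37-fold. Gzmf, Gzmc, Gzmd and Gzme were thus higher in both classes. Their ratio was larger in Trbv13-1 cells, although the Gzme interval included the value of other cells. Within the exhausted-like cluster 0 the ratio was smaller in Trbv13-1 cells, at 1.76 (1.31 to 2.32) against 1.83 for Gzmf and 1.47 (1.05 to 2.04) against 2.05 for Gzmc. In clusters 1, 2, 7 and 11 it was larger for both genes. The interval included the value of other cells for Gzmf in cluster 2, at 4.25 (3.77 to 4.80) against 4.10. The same held for Gzmc in cluster 7, at 1.59 (1.36 to 1.86) against 1.52. Gzmb, the main granzyme of effector cells, went from 2074 to 2796 CPM (1.35-fold higher, 1.32 to 1.38) against 1.42-fold, and Prf1 was 1.07-fold higher (1.01 to 1.12).

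The share of cells with a UMI of Gzmf or Gzmc was also higher in the NK-depleted library. A UMI of Gzmf was found in 26.7% of control and 77.8% of NK-depleted Trbv13-1 cells, and at equal depth in 17.4% (13.6 to 21.8%) and 57.4% (50.9 to 63.7%). Naive-like cells, in which little of it would be looked for, had it in 4.89% and 39.3%, a background to which free RNA can add and that stood below the Trbv13-1 share in each library. That background was itself much higher in the NK-depleted library, so these shares cannot show over how many cells the difference was spread. Other cells had 15.3% and 50.1%. The sum was unevenly held. The 18 control cells with the highest values, the top 5%, held 74.7% of Gzmf UMIs, and the 12 highest NK-depleted cells held 43.6%. Gzmc behaved alike, with a UMI at equal depth in 10.9% of control (7.80 to 14.6%) and 42.1% of NK-depleted (35.9 to 48.6%) Trbv13-1 cells.

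Ifitm genes, which encode interferon-induced membrane proteins, were the next group. Ifitm2 went from 157 to 648 CPM, 4.13-fold higher (3.86 to 4.42) against 3.23-fold in other cells. Ifitm3 was 2.74-fold higher (2.58 to 2.91) against 2.04-fold, and Ifitm1 2.004-fold (1.92 to 2.09) against 1.89-fold. They parted from the remaining interferon genes. Of the 23 type I response genes, 9 were lower past the list fold and 1 higher in NK-depleted Trbv13-1 cells, at a median log2 ratio of -0.29. Over all 7787 genes 13.3% were lower and 10.4% higher at that fold, and the median was -0.02. In other cells 20 of the 23 were lower and 0 higher (median -0.47), beside 938 lower and 517 higher of all 7787 genes (median -0.06). Ifit3 was 1.72-fold lower (1.59 to 1.85) in Trbv13-1 cells against 1.95-fold in other cells, and Slfn5 1.24-fold lower (1.11 to 1.39) against 2.15-fold.

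AA467197, which encodes a small mitochondrial protein, was 3.46-fold higher (3.15 to 3.79) against 2.96-fold. Bcl2, which protects cells from apoptosis, went from 164 to 300 CPM (1.83-fold higher, 1.69 to 1.98) against 1.37-fold. The metallothionein Mt1, which binds zinc and copper, went the other way in size, 1.79-fold higher (1.60 to 2.001) in Trbv13-1 cells and 2.76-fold in other cells. Xcl1, a chemokine that draws dendritic cells, went from 52.6 to 118 CPM (2.24-fold higher, 1.97 to 2.56) against 1.18-fold. The top 5% of Trbv13-1 cells held 79.5% of Xcl1 UMIs in the control and 73.2% in the NK-depleted library. The sign of Xcl1 turned in the cells with the surest Trbv13-1 call, at a log2 ratio of -1.28 in 38 control and 18 NK-depleted cells. The chemokine gene Cxcl10, 1.89-fold higher (1.60 to 2.23), likewise stood at -1.67 there.

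On the lower side, Itga4 and Tox had the lowest ratios of the named genes. Itga4, the alpha 4 integrin that binds activated endothelium, went from 142 to 36.0 CPM, 3.95-fold lower (3.36 to 4.66), against 3.24-fold in other cells. Tox, a transcription factor that supports the exhausted state, went from 88.6 to 24.5 CPM, 3.61-fold lower (2.96 to 4.43), against 3.05-fold. A UMI of Itga4 at equal depth was found in 42.6% of control (37.3 to 47.9%) and 16.5% of NK-depleted (12.1 to 21.8%) Trbv13-1 cells, and one of Tox in 32.0% (27.1 to 37.2%) and 12.0% (8.17 to 16.8%). Naive-like cells had Itga4 in 34.5% and 22.1% and Tox in 21.0% and 12.2%, so the NK-depleted Trbv13-1 cells stood no higher than the naive-like cells. The part of free RNA in these shares was not measured. Ccl5 was 2.48-fold lower (2.39 to 2.57) against 2.44-fold and Gzmk 2.36-fold (1.91 to 2.94) against 2.34-fold, the same in both classes within their intervals. Nrgn was 2.07-fold lower (1.86 to 2.31), Nrp1, a coreceptor for semaphorins, 2.14-fold (1.84 to 2.50) and Cx3cr1, the fractalkine receptor, 1.92-fold (1.64 to 2.25).

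The other members of the exhaustion list were also mostly lower in NK-depleted Trbv13-1 cells. Of 14 genes, 8 were lower past the list fold and 1 higher, at a median log2 ratio of -0.38, and other cells gave 9 and 2 with -0.45. Over all 7787 genes 13.3% were lower and 10.4% higher in Trbv13-1 cells, and other cells gave 938 lower and 517 higher. Lag3 went from 546 to 373 CPM (1.46-fold lower, 1.38 to 1.55) against 1.51-fold. Slamf6, a receptor of less differentiated exhausted cells, was 2.69-fold lower (2.03 to 3.62) against 2.02-fold. Rgs16, a regulator of G protein signalling, was 1.90-fold lower (1.77 to 2.04) against 1.48-fold. Ccl3, a chemokine of recently stimulated T cells, went from 323 to 152 CPM (2.12-fold lower, 1.96 to 2.31) against 1.29-fold, and Ccl4 was 1.77-fold lower (1.69 to 1.85) against 1.35-fold. Of 18 early receptor-response genes, 8 were lower and 1 higher, close to the 7 lower and 0 higher of other cells.

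Of the homing genes, which set Trbv13-1 cells apart within each library, Klf2 and S1pr1 differed little between the libraries in these cells. Klf2 stood at 45.9 and 44.1 CPM and S1pr1 at 14.9 and 15.2 CPM. The list as a whole moved both ways. Of its 9 genes, 3 were higher and 2 lower past the list fold, with a median of 0.03, beside 10.4% higher and 13.3% lower over all 7787 genes. Ccr7 was 1.53-fold lower in the NK-depleted library, so it stood apart from Klf2 and S1pr1. Division genes were higher in both classes. Of 24 S phase genes, 10 were higher and 0 lower in Trbv13-1 cells, and 11 and 0 in other cells. Of 26 G2 and M phase genes, 5 were higher and 1 lower in Trbv13-1 cells, against 20 and 0 in other cells. Over all 7787 genes, 517 were higher and 938 lower in other cells. Top2a, the topoisomerase of dividing cells, was 1.36-fold higher (1.29 to 1.44) against 1.54-fold.

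The remaining lists moved less or in step with other cells. For scale, 10.4% of all 7787 genes were higher and 13.3% lower between the libraries in Trbv13-1 cells. In other cells 517 of them were higher and 938 lower. Of 12 costimulatory receptor genes, 6 were lower past the list fold and 0 higher in NK-depleted Trbv13-1 cells, and other cells gave the same counts. Of 15 genes of the T cell receptor complex, 5 were lower and 0 higher in each class. Of 12 tissue residency genes, 2 were higher and 2 lower in Trbv13-1 cells and 0 and 3 in other cells. Of 11 NK receptor genes, which some activated CD8 T cells carry, 5 were higher and 2 lower (median -0.02), against 6 and 1 in other cells (median 0.80). Against other cells of the control library, 5 of the 11 were lower and 0 higher in Trbv13-1 cells. The median log2 ratio there was -0.003, beside -0.01 over all 7787 genes, so the list as a whole was level. In the NK-depleted library 5 were lower and 1 higher, with a median of -0.26 beside 0.02. Over all genes 5.28% were lower and 2.89% higher in the control, and 3.58% and 3.33% in the NK-depleted library. Oxidative phosphorylation genes gave 0 of 21 past the list fold between Trbv13-1 and other cells in either library.

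**Figure D5:**
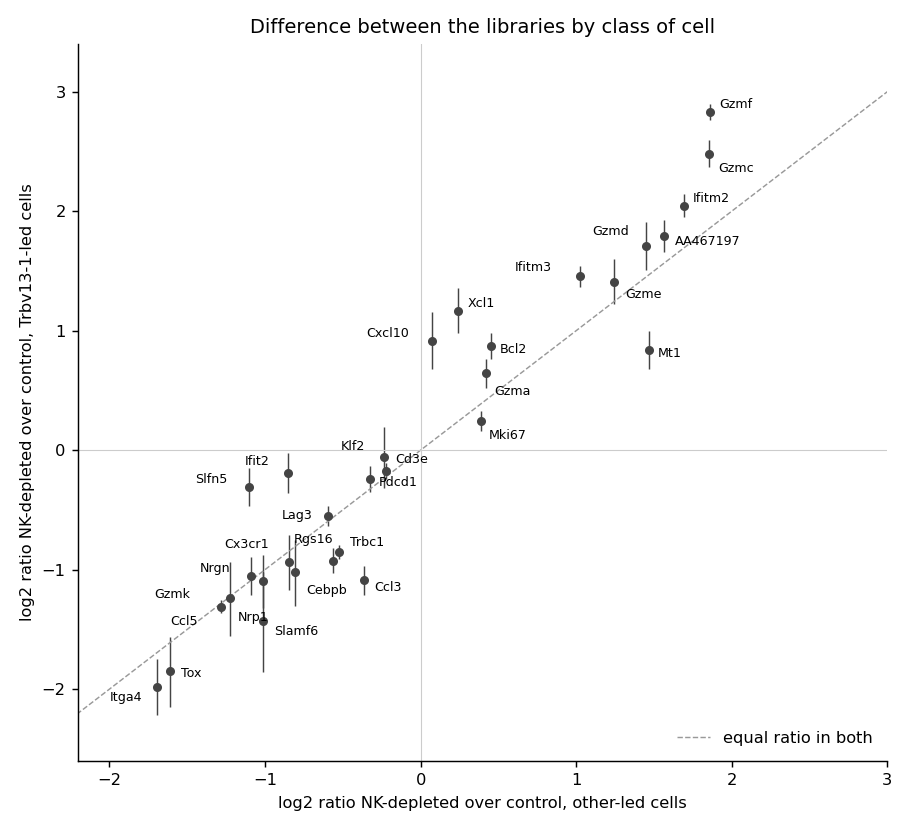
NK-depleted over control ratio (log2) of named genes in Trbv13-1 cells (vertical axis, bars are conditional binomial 95% intervals) against the same ratio in cells led by another Trbv gene (horizontal axis), with a dashed line where both are equal. Gzmf, Gzmc and Ifitm2 lie highest and Itga4 and Tox lowest in Trbv13-1 cells, on the same side of 0 as in the other cells.

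The ratio of the library ratios named the genes in which Trbv13-1 and other cells parted most. On the log2 scale it was 0.97 for Gzmf, 0.92 for Xcl1, 0.85 for Cxcl10, 0.79 for Slfn5 and 0.66 for Ifit2. On the low side it was -0.72 for Ccl3, -0.63 for Mt1, -0.51 for Nfkbib, an inhibitor of NF-kappaB, and -0.46 for both the adaptor gene Lat2 and the secretory pathway gene Cnih1. None of these was tested, and a few cells held most UMIs of Xcl1, Cxcl10 and Ccl3, whose top 5% of control Trbv13-1 cells held 79.5%, 71.0% and 57.7%. For Gzmf these cells held 74.7%, against 87.4% in the top 5% of other control cells, and its control log2 ratio of Trbv13-1 to other cells was -0.51, or -0.02 at equal depth and 0.32 with the lead of 3 UMIs.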

How the data were processed

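The authors deposited whole UMI counts, not normalized, for 32285 genes in each barcode. Per the file headers, Cell Ranger 6.1.2 made them. The submitters' processing notes name mm10 and Seurat 4.0.6, without a role. Members, gene lists and comparisons were chosen with earlier results of these data known. Trbv genes (35) were ranked in each barcode by UMIs. Trbv13-1 cells summed to 7529993 control and 4808564 NK-depleted UMIs, other-led cells to 41063053 and 45611371. Summed counts were given as CPM with exact Poisson intervals, shares with Clopper-Pearson and ratios with conditional binomial intervals (scipy 1.17.1). No doublet caller was run. Cells with 2 UMIs of a second Trbv were left out as an alternative. Both libraries were clustered together without integration (scanpy 1.11.5, leidenalg 0.10.2, 2000 variable genes, 30 components, 15 neighbours, resolution 1), leaving receptor segments, mitochondrial, ribosomal and sex-linked genes out of the variable genes. A state name needed 3 markers at 2-fold and another cell type 3 at 4-fold with 1 among the 10 leading genes. Thinning drew 5500 UMIs per cell. Genes named are the 8 highest and 8 lowest ratios in each comparison, the 5 highest and 5 lowest ratios of ratios, up to 3 members per list and a set of CD8 T cell genes, without sex-linked, haemoglobin, ribosomal, mitochondrial, receptor segment or unnamed genes. For 20 lists, members of at least 10 CPM were counted at 1.25-fold. TMM factors came from edgeR 4.0.16. The scripts were tested on simulated data. Sequences and coordinates come from GENCODE M21 (GRCm38). Joining segments were too few to define receptor combinations, so Trav alone was used. The result for 1 gene that the rule would name is not reported here.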

Additional observations from a re-analysis of the deposited data

Results flagged for a closer look

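For 2 genes the comparison of Trbv13-1 cells with other cells went opposite ways in the libraries, and the difference between the libraries was not tested. Ccl3 had a log2 ratio of 0.35 in the control library (1.28-fold, 1.22 to 1.33) and -0.37 with NK cells depleted (0.774-fold, 0.717 to 0.835). The top 5% of cells held 70.1% of the Ccl3 UMIs of NK-depleted Trbv13-1 cells and 83.4% of those of other cells, and at equal depth per cell the log2 ratio there was 0.12. Gzmf had a log2 ratio of -0.51 in the control library (0.702-fold, 0.670 to 0.735) and 0.46 with NK cells depleted (1.38-fold, 1.35 to 1.41). At equal depth the control value was -0.02 and the NK-depleted value 0.60, so the lower control value was not kept there, nor with a lead of 3 UMIs (0.32).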

How the results depend on the processing

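Trbv13-1 use stayed lower in the NK-depleted library under all 10 alternatives, with a difference of -6.55 to -3.42 points, a control share of 11.9 to 15.3% and an NK-depleted share of 7.47 to 9.36%. A lead of at least 3 UMIs and 3 times the next segment (38 control and 18 NK-depleted cells) gave 7.47% in the NK-depleted library and a difference of -6.55 points. With it, 1 gene was higher and 9 lower than in other cells in both libraries, 155 were higher and 230 lower between libraries, and control cells were 0% naive-like and 28.9% cycling. Of 57 named genes, the log2 ratio changed sign for 6 against other cells in the control, 23 in the NK-depleted library and 11 between libraries (with a lead of 2 UMIs, 2, 11 and 7). Past 1.5-fold these were Cd74 (0.072), Cxcl10 (-1.67), Ifit3 (0.065) and Xcl1 (-1.28) between libraries, and against other cells Gzma (0.28) in the control and Klrg1 (0.83) in the NK-depleted library. Among smaller ratios, Gzmf (0.32) turned in the control, and Gzma (1.498), Lag3 (-0.20), Pdcd1 (-0.056), Prf1 (-0.14) and Mki67 (-0.17) in the NK-depleted library. A lead of 2 UMIs and 2 times the next, added after seeing the data, gave a control share of 15.3%, 1 gene higher and 4 lower, 44 higher between libraries, 1.55% naive-like control cells, 27.1 and 34.7% cycling cells and a Cxcl10 ratio of -0.74. Thinned counts gave a control share of 11.9% and 82 genes higher between libraries. Without cycling clusters 5 genes were lower and Gzma stood at -0.023 between libraries, and a mean over cells also gave 5. A minimum of 10 CPM gave 1 higher and 11 lower, and 208 and 262 between libraries, and 100 CPM gave 0 lower, and 16 and 26. At Leiden resolution 0.5, 10.1% of NK-depleted cells were naive-like. Unthinned, Mki67 or Top2a was found in 63.8 and 75.8%. Without clusters of other cell types, added after seeing the data, Cd74 stood at 0.090 against other cells of the NK-depleted library and at 0.37 between libraries. The cause of these shifts was not tested. With TMM or median-of-ratios factors 31 genes were higher and 51 lower between libraries, and the median of all genes moved by at most 0.042 in log2. No paired analysis was possible because each group has 1 library. Most calls rest on 1 Trbv UMI, and 607 cells limit what low genes can show.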

Other observations

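Within cluster 2, the unnamed cluster led by Styk1 and Ifitm1, Gzma was almost missing from Trbv13-1 cells, at 3.99 CPM in the 40 control cells against 433 CPM in other cells and at 28.2 CPM in the 40 NK-depleted cells against 519 CPM. In cluster 11, a cycling cluster with 17 Trbv13-1 cells in each library, Gzmf stood at 261 CPM in control and 5032 CPM in NK-depleted Trbv13-1 cells, beside 865 and 1397 CPM in other cells. The choice of these clusters was made after their values were seen.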
